A study of Mus musculus with 15 samples.

Results

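Ikaros knockout (KO) macrophages after 3 h of lipopolysaccharide (LPS) were compared with the same cells at rest, by DNase-seq. The comparison uses 4 of the 15 hotspot lists of the study, titled KO 3h LPS replicates 1 and 2 and KO 0h LPS replicates 1 and 2. A hotspot is a stretch of the genome that the authors listed as dense in DNase-seq tags in a library. Hotspots on chromosomes 1 to 19 were ranked within each list by their highest tag density (MaxD), with rank 1 the densest. Each list was shortened to its 107045 densest hotspots, the length of the shortest of the 4, and hotspots sharing at least 1 bp over the lists were merged into 187311 union regions.

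The cells were primary macrophages grown from bone marrow of C57BL/6J mice. The genotype of both KO groups is labelled Ikzf KO, while the series title names Ikaros; the allele, the Ikzf gene meant, and whether animals were pooled are not stated in the sources used here. The 3 h cells received 10 ng/ml LPS and the resting cells are labelled as the 0 h time of the same treatment. All 4 titles give 80 U of DNase. The other lists of the study are 2 KO lists at 8 h, 2 wild-type (WT) lists at each of 0, 3 and 8 h, and 1 littermate control list at each of these times, and they did not enter the choice of regions. Their titles also give 80 U of DNase, except those of WT replicate 2, which give a larger amount at all 3 times. The WT replicates thus differ in DNase amount at each time, while each WT replicate has the same amount at all times. The labels do not tie replicates to separate animals or cultures, and the spread between replicates may be technical.

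LPS, the endotoxin of Gram-negative bacteria, is sensed by macrophages through Toll-like receptor 4, and the signal activates NF-kB, AP-1 and interferon regulatory factors. These factors bind enhancers and promoters that are already open and also enhancers that open only after stimulation, while other elements lose accessibility. Ikaros, encoded by Ikzf1, binds DNA in lymphoid and myeloid cells and can recruit chromatin remodelling complexes that repress or maintain target genes. DNase I cuts accessible chromatin preferentially, so the density of DNase-seq tags is read as a measure of openness. Regions are given here by position in the mouse build mm9; genes were not assigned, and the labelled cell type was not checked against marker genes here.

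On chromosomes 1 to 19 the lists held 107045 and 108292 hotspots at 0 h and 115966 and 112044 at 3 h, covering 88.7 and 87.3 Mb against 101.0 and 93.2 Mb. Sequencing depth is unknown, since no read counts are listed. The deposited densities are whole multiples of one step per list, with 0 h steps of 0.318 and 0.320 against 3 h steps of 0.280 and 0.287. The finer steps and the longer lists thus both fell on the 3 h side, and what they contribute to the differences below was not tested. Shortening left out 0 and 1247 hotspots at 0 h and 8921 and 4999 at 3 h, and the last hotspot kept had a MaxD of 1.28 in 0 h replicate 2, 1.68 in 3 h replicate 1 and 1.44 in 3 h replicate 2, the same as the first one left out.

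More regions were gained than lost after 3 h of LPS where both replicates had to hold a region. Present in both lists at 3 h and absent from both at 0 h were 8161 regions, 4.36% of the union, called gained here. Present in both at 0 h and absent from both at 3 h were 4096 regions, 2.19% of the union, called lost. Presence in 2 lists against 2 allows no test below 0.05, since the smallest two-sided exact permutation p is 0.333. All 4 lists shared 59894 regions. The remainder varied between replicates: 52650 regions were in a single 0 h list alone and 44548 in a single 3 h list alone, the reverse order. Replicates at 3 h shared 56.8% of their regions and replicates at 0 h 51.2%, against 48.1% to 50.0% for pairs of lists across times. The better agreement at 3 h moves with the excess of gained regions, and what it contributes was not tested. With both replicates required on each side and lists cut to 0.5 of that length, gained and lost regions came closer, at 4671 and 3692. The second list of each time mattered more: with 3 h replicate 2 or replicate 1 standing alone for 3 h the gained count was 31769 or 30787, and with 0 h replicate 2 or replicate 1 standing alone for 0 h the lost count was 32096 or 30489. Leaving out 3 h replicate 1 also raised the lost count to 7244.

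Gained regions were mostly short and weak. Their median length was 679 bp against 1158 bp for regions in all 4 lists, and the median of their mean rank at 3 h was 62174, against 32587 over the 4 lists for the shared regions. Of the 8161, 2745 (33.6%) had a mean rank in the denser 50% of the lists and 13 were among the first 10000. Lost regions were shorter and weaker still, with a median length of 592 bp, a median mean rank at 0 h of 68467 and 22.7% in the denser 50%. Since shortening left out few 0 h hotspots, nearly all gained regions (8155 of 8161) were in neither 0 h list as deposited. Of the lost regions, 3938 were in neither deposited 3 h list, 146 were in one and 12 in both, below the rank at which the lists were shortened.

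The 10 densest gained regions lay on 8 chromosomes and were 976 to 1656 bp long. The region at chr7:148159026-148160270 ranked 7364 and 7243 in the 3 h lists, with a MaxD of 26.0 and 25.8. It was in no 0 h list of any genotype. Ranks outside the 4 lists are those in the lists as deposited, which differ in length (120507 and 127374 hotspots in KO at 8 h, 50187 to 110569 in the littermate and 15042 to 50212 in WT), so they show presence and not a level between genotypes. In KO at 8 h it ranked 5153 and 4833, and it was also in the littermate lists at 3 h and 8 h, at ranks 16778 and 15399. The region at chr16:24765872-24767527 ranked 9607 and 7049 in KO at 3 h, with a MaxD of 22.4 and 26.4, and was in the littermate lists at 3 h and 8 h, at ranks 3140 and 1241. It was in both WT lists at 3 h as well, at 6663 and 5892, so its appearance with LPS was seen in all 3 genotypes.

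The region at chr1:135188041-135189016 behaved otherwise in the controls. It ranked 8922 and 6163 in KO at 3 h, with a MaxD of 23.2 and 28.1, and 1795 and 1453 in KO at 8 h, with a MaxD of 62.2 and 67.4. None of the 9 WT and littermate lists, as deposited, held it, and the same held for chr14:70394054-70395374, which ranked 9552 and 8219 in KO at 3 h and 24984 and 22146 at 8 h. These 2 were singled out after their values were seen, and the difference between genotypes was not tested for them. The region at chr2:164574055-164575122 had a MaxD of 23.8 in each 3 h list and of 12.3 and 13.8 in the 8 h lists. Thus the KO 8 h densities lay above those at 3 h for some of the strongest gained regions and below them for others. Both KO 8 h lists held all 10 and no control list at 0 h held any, while 7 were in the littermate list at 3 h, 8 in that at 8 h, 2 in both WT lists at 3 h and 7 in both WT lists at 8 h.

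Gained regions were mostly found again at 8 h in KO. With the 8 h lists shortened to the same length, 5275 of 8161 (64.6%, Wilson 95% interval 63.6 to 65.7) were in both of them and 1460 (17.9%) in neither. The median rank of those present was 57279 over 5833 regions and 57715 over 6143. All 8161 gained regions had median ranks of 62664 and 61652 in the 3 h lists. These medians cover different regions, so they do not show a change in level. Fewer lost regions were found at 8 h: 854 of 4096 (20.8%, 19.6 to 22.1) were in both and 2198 (53.7%) in neither. With the 8 h lists as deposited, 954 (23.3%) were in both and 2050 (50.0%) in neither. For comparison, 97.2% of the regions shared by all 4 lists, which ranked denser, were in both 8 h lists cut to the same length. The KO 8 h lists had density steps of 0.279 and 0.237, as fine as or finer than those at 3 h, which moves with the same contrast. These intervals, here and below, cover the counting of regions only, and neighbouring regions are not independent.

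The 2 lost regions of highest density had low Z-scores. Those at chr11:3030749-3031165 and chr11:3031442-3031758 ranked 6504 and 7303, and 7056 and 7635, in the 0 h lists. Their Z-scores were 5.82 and 3.73, and 4.22 and 4.07, near the lowest Z-scores of these lists (3.64 and 3.66), whereas the other 8 named lost regions had Z-scores of 8.44 to 21.4. The first of the 2 was among the densest in control lists at 0 h, at rank 43 in the littermate list and ranks 55 and 146 in the WT lists, and it stayed there at 3 h, at rank 137 in the littermate list and ranks 72 and 232 in WT. No KO 8 h list held either region. Whether these high densities at low Z-scores reflect open chromatin was not tested.

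Among the other named lost regions, chr11:69502982-69503888 ranked 13885 and 7004 in the 0 h lists, with a MaxD of 16.9 and 26.2, and was in no KO list at 3 h or 8 h. The littermate list held it at 0 h at rank 13006 and not at 3 h. The region at chr10:80864446-80865357 ranked 11325 and 16030 in KO at 0 h, and was in the littermate and both WT lists at 0 h and in none of the 5 lists at 3 h. The region at chr2:165773109-165774156 ranked 22163 and 19033 at 0 h and returned at 8 h, at ranks 45738 and 45938. Of the 10 named lost regions, 9 were in the littermate list at 0 h and 4 in that at 3 h, and 4 were in both KO 8 h lists.

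Shared regions were compared by rank, because the scaling of the deposited densities is not stated. A region took the rank of its densest hotspot in each list, and each rank was given the mean log2 MaxD that the 4 lists have at that rank, called the rank-matched log2 density. The difference between times (3 h minus 0 h) was tested with limma, with Benjamini-Hochberg adjustment over all 59894 shared regions and an adjusted p under 0.05 as the threshold. At 3 h, 5421 regions (9.05%) rose and 5891 (9.84%) fell, 11312 (18.9%) in all. The median difference was 0.90 on the log2 scale for the risen and -0.87 for the fallen regions, and -0.07 over all shared regions. At least 2-fold changes numbered 2149 up and 1872 down, and at least 4-fold changes 120 up and 29 down. With the lists as deposited, 6575 rose and 4659 fell, so that the share of rises among the called regions was 58.5% in place of 47.9%. Both 3 h lists ranked denser than both 0 h lists in 14773 regions (24.7%) and less dense in 20073 (33.5%); all called regions were among these.

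These differences were larger than those between replicates. The median absolute difference between the 2 replicates was 0.21 at 0 h and 0.21 at 3 h, and the median absolute difference between times was 0.30. The replicate values are between single lists and the time value is between means of 2 lists, which vary less. Over the shared regions the ranks of the 2 replicates had a Spearman correlation of 0.938 at 0 h and 0.951 at 3 h, against 0.836 to 0.847 across times, over regions of lists that share their caller. With any one of the 4 lists left out the fit has 1 residual degree of freedom, and limma called no region in either direction. The unadjusted p was then under 0.05 for 4950 to 6349 regions higher and 6127 to 7333 regions lower at 3 h, against 8254 and 10553 with 4 lists. The differences themselves moved little: without one list, the 10 regions that rose most had differences of 2.49 to 3.64 and the 10 that fell most -3.01 to -2.05, all at an adjusted p of 0.23 to 0.25 (limma).

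**Figure D1:**
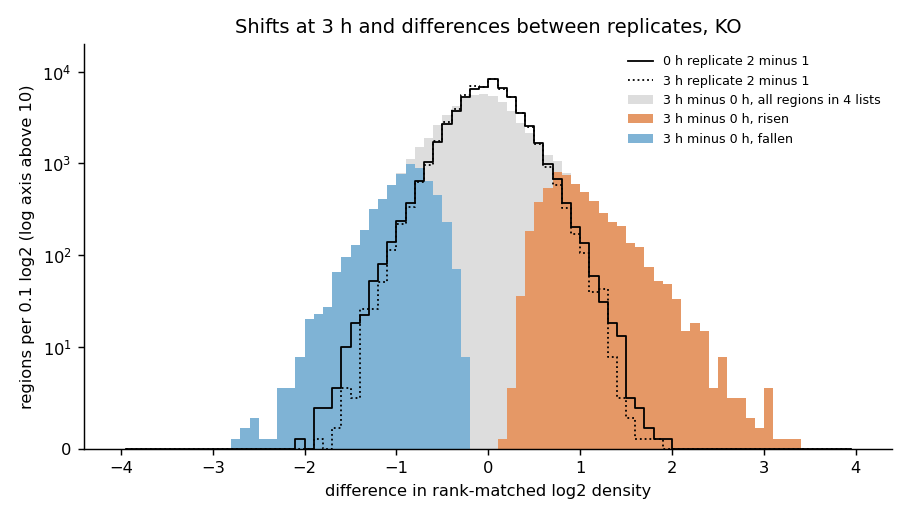
Number of regions (vertical, logarithmic above 10) per 0.1 of difference in rank-matched log2 density (horizontal) for the 59894 regions in all 4 KO lists. Grey bars are 3 h minus 0 h, orange and blue the 5421 risen and 5891 fallen regions, and lines the differences between replicates at each time, which are narrower.

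The 10 regions that rose most ranked 27258 to 103510 at 0 h and 552 to 11765 at 3 h. The region at chr1:162299577-162302864 ranked 70856 and 66320 at 0 h and 3702 and 3575 at 3 h, with a MaxD of 3.18 and 3.52 before and 37.2 and 37.3 after LPS. Its rank-matched density rose by 3.39 ± 0.20 (limma's moderated SE, n = 2 lists per time, adjusted p = 1.4e-08), or 10.5-fold on this scale. Here and below this SE draws mostly on the spread of all shared regions, with 16.3 prior against 2 residual degrees of freedom. It is thus not the spread of the named region's own lists. With limma's variance trend left off, the adjusted p for this region was 0.0016. At 8 h its MaxD was 58.0 and 55.7. The control lists did not hold it at 0 h, and held it at 3 h at rank 10913 in the littermate and at 11319 and 19347 in WT. The 0 h and 3 h ranks were far apart, with no overlap and a small difference within each time. The region was chosen for its difference on these same lists, so this separation follows from the choice.

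The region at chr11:54771793-54777357 is 5565 bp long and ranked 33899 and 42841 at 0 h and 818 and 1118 at 3 h, a rise of 3.21 ± 0.17 (limma, adjusted p = 6.2e-09). Its MaxD went from 7.96 and 6.08 to 67.7 and 61.4, and was 96.3 and 93.7 at 8 h, the highest 8 h densities among the named regions. The densest named region at 3 h was chr10:36865009-36866247, at ranks 626 and 552 against 27258 and 28752 at 0 h, a rise of 3.04 ± 0.15 (limma, adjusted p = 2.8e-09). In control lists it was absent at 0 h, though the WT 0 h lists, of 16572 and 20628 hotspots, end before its KO 0 h ranks. At 3 h it was at rank 6755 in the littermate list and 9942 in WT replicate 1, and not in WT replicate 2. One further region, chr2:122490748-122492854, was dense at 3 h in every genotype: it ranked 2937 and 4099 in KO, 1170 in the littermate and 2248 and 1686 in WT, lists of different lengths. Its MaxD was 41.1 and 35.03 in KO, 19.9 in the littermate, and 17.8 and 22.6 in WT. The scaling of these densities is not stated, so they do not show a level between genotypes. Its rise in KO was 3.04 ± 0.20 (limma, adjusted p = 3.6e-08).

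The other 6 regions of the 10 that rose most lay on chromosomes 2, 5, 8, 12, 14 and 16, and the 10 together rose by 2.99 to 3.39. All 10 were in both KO 8 h lists. None was in a WT list at 0 h and 2 were in the littermate list at 0 h, while 9 were in the littermate list at 3 h and 8 in at least one WT list at 3 h. The 2 that the littermate list held at both times, chr11:54771793-54777357 and chr8:91173030-91176095, had littermate differences of 1.04 and 1.94, against 3.21 and 2.99 in KO. Littermate ranks were given the mean log2 MaxD of the littermate lists, shortened to 50187 hotspots, so the littermate and KO sizes are on different scales. With 1 littermate list per time, the littermate contrast has no replicate check. Both of these regions also lost their call when hotspots up to 150 bp apart were merged, with differences of 0.03 and 0.26.

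The 10 regions that fell most ranked 531 to 20582 at 0 h and 17711 to 94538 at 3 h. The region at chr2:166086448-166088181 ranked 2622 and 2956 at 0 h and 48685 and 37640 at 3 h, with a MaxD of 43.3 and 41.3 before and 5.88 and 7.47 after LPS. Its rank-matched density fell by 2.71 ± 0.19 (limma, adjusted p = 9.1e-08), a 6.52-fold fall on this scale. The littermate list held it at rank 2882 at 0 h and 23086 at 3 h, and the WT lists held it at 0 h, at 6179 and 4989, and not at 3 h. A fall with LPS was thus seen in each genotype for this region, with no test in the controls.

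The densest of the named fallen regions at rest was chr9:121544607-121546669, at ranks 531 and 967 at 0 h and 17711 and 26543 at 3 h (difference -2.62 ± 0.17; limma, adjusted p = 3.6e-08). Its MaxD of 83.7 and 69.1 at rest became 14.8 and 10.3 at 3 h. At 8 h it was back at 42.4 and 34.2, between the 2 earlier times, the only one of the 10 with an 8 h rank in the first 10000. The region at chr5:64727385-64729327 had nearly equal replicates, at ranks 2049 and 2018 at 0 h and 33612 and 33308 at 3 h (difference -2.55 ± 0.17; limma, adjusted p = 3.6e-08), and stayed low at 8 h, at 32397 and 37045. In the littermate lists it went from rank 1099 to 17320 between 0 and 3 h.

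The 10 regions that fell most had differences of -2.71 to -2.28. All were in the littermate list at 0 h and in at least one WT list at 0 h. At 3 h, 5 were in the littermate list and 1 was in a WT list. The region at chr4:109218655-109219934 differed in this respect: it ranked 15409 and 17761 in KO at 0 h and 73424 and 77461 at 3 h, whereas in the littermate lists it ranked 19055 at 0 h and 16850 at 3 h, a difference of 0.11. It was chosen after its values were seen, and the WT lists held it in replicate 2 at 0 h and in neither list at 3 h.

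**Figure D2:**
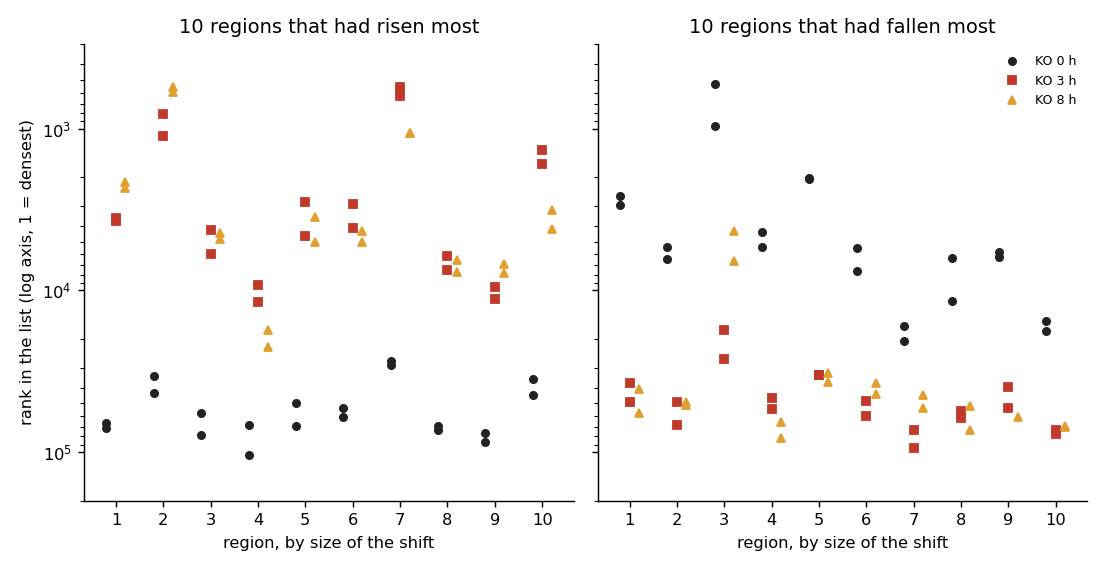
Rank in each KO list (vertical, logarithmic, densest at the top) of the 10 regions that rose most and the 10 that fell most, ordered by the size of the difference, with 2 points per time. Ranks at 8 h are in the lists as deposited. The regions were chosen on the 0 h and 3 h lists. In each, as in all called regions, both 3 h points lie on one side of both 0 h points. In the right panel region 3 returns toward its 0 h rank at 8 h.

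Rises and falls differed in how they were spread over strength. Shared regions were split into 10 equal classes by their mean rank-matched density over the 4 lists. Rises made up 11.2% of the densest class, peaked at 13.2% in the third and made up 1.10% of the weakest. Falls made up 9.83%, 12.2% and 5.23% of the same classes, so the weakest class held 66 rises and 313 falls. The median difference in that class was -0.20 against -0.04 in the densest, and the standard deviation between replicates was 0.318 against 0.142. These classes come from lists cut to one length. With the lists as deposited, 6575 shared regions rose and 4659 fell, with a median difference of 0.01 in place of -0.07. How this bears on the weakest class was not tested. Risen regions were also longer, with a median of 1455 bp against 1277 bp for fallen and 1110 bp for uncalled shared regions. The hotspots of risen regions covered a median of 987 and 961 bp in the 0 h lists and 1383 and 1315 bp in the 3 h lists, and those of fallen regions 1166 and 1134 bp and then 997 and 938 bp.

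**Figure D3:**
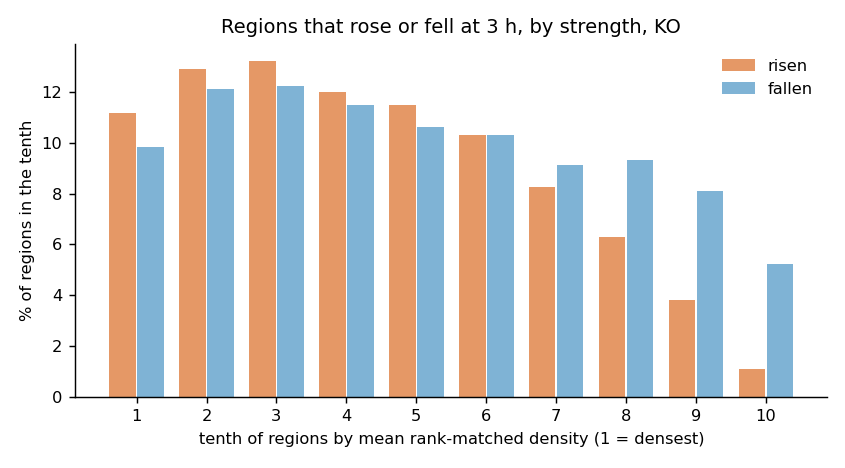
Percent of regions that rose or fell at 3 h in KO (bars) in 10 equal classes of the shared regions, ordered by mean rank-matched density. Both shares are highest in the third class, and rises drop to 1.10% in the weakest class while falls drop to 5.23%. Lists are cut to one length.

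The KO 8 h lists, which did not enter the choice, give the levels of the same regions later on. Risen regions had median ranks of 34534 and 34469 at rest, of 14950 and 14476 at 3 h, and of 15970 and 15713 at 8 h. For fallen regions the median ranks were 18454 and 18312 at rest, then 38208 and 39778 at 3 h, and finally 33185 and 33814 at 8 h. Uncalled shared regions stayed between 32727 and 33933 in the 6 lists. At 8 h the risen regions were thus near their 3 h level, and the fallen regions lay between their 3 h level and their 0 h level, closer to 3 h. Nearly all were still listed: 99.9% of risen and 96.9% of fallen regions were in both 8 h lists. A comparison of 8 h with 0 h would use the same resting lists, so only levels are given.

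**Figure D4:**
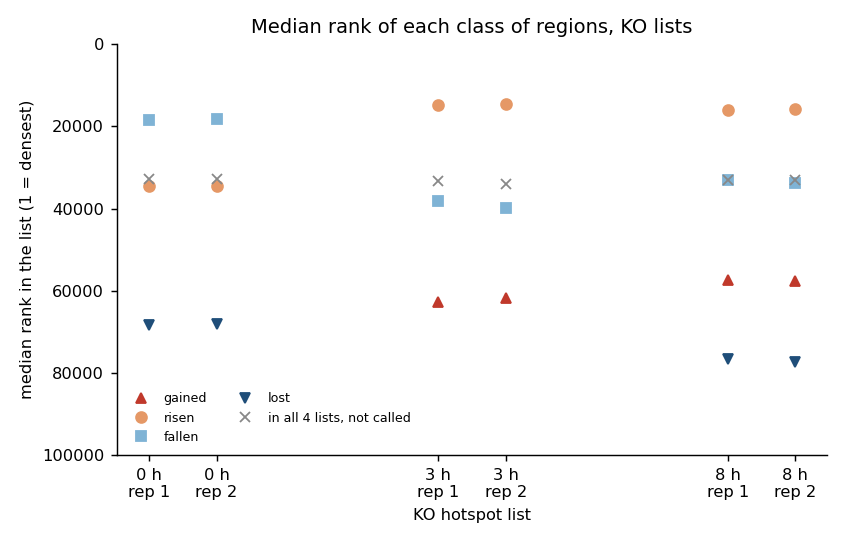
Median rank (vertical, densest at the top) of gained, risen, fallen, lost and uncalled shared regions in each of the 6 KO lists, over the regions present in that list. Risen regions lie at 14950 and 14476 at 3 h and at 15970 and 15713 at 8 h, and fallen regions stay below their 0 h rank at 8 h.

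The control lists, which share no library with KO, held the regions in patterns that differed by class. The littermate lists were shortened to 50187 hotspots. They held 2.86% of gained regions at 0 h (2.52 to 3.24), 10.1% at 3 h (9.46 to 10.8) and 25.4% at 8 h. Lost regions were at 13.9% at 0 h, 5.32% at 3 h and 9.94% at 8 h. As deposited, the littermate 8 h list is as long as the KO lists, with 110569 hotspots, and held 49.0% of gained, 33.1% of lost and 87.9% of all shared regions. Risen regions were at 49.3% at 0 h and 66.5% at 3 h, and fallen regions at 73.8% and 50.4%, while uncalled shared regions were at 51.1% and 44.7%. In the littermate lists the gained and risen regions were thus more often present at 3 h, and the lost and fallen regions less often, with 1 list per time and no test.

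The WT lists are short, and were shortened to 15042 hotspots. Both WT lists held 12.4% of risen regions at 0 h and 27.9% at 3 h, and 28.0% of fallen regions at 0 h and 15.1% at 3 h. Gained regions were hardly covered at this length: both lists held 0 of 8161 at 0 h and 35 (0.429%) at 3 h. All 9 deposited control lists lacked 48.8% of gained and 59.9% of lost regions, against 7.16% of risen, 8.61% of fallen and 10.4% of all shared regions. Gained and lost regions were weak in KO, as given above, and the control lists other than the littermate 8 h list were shorter than any KO list. Absence from a control list and its shorter length cannot be told apart.

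**Figure D5:**
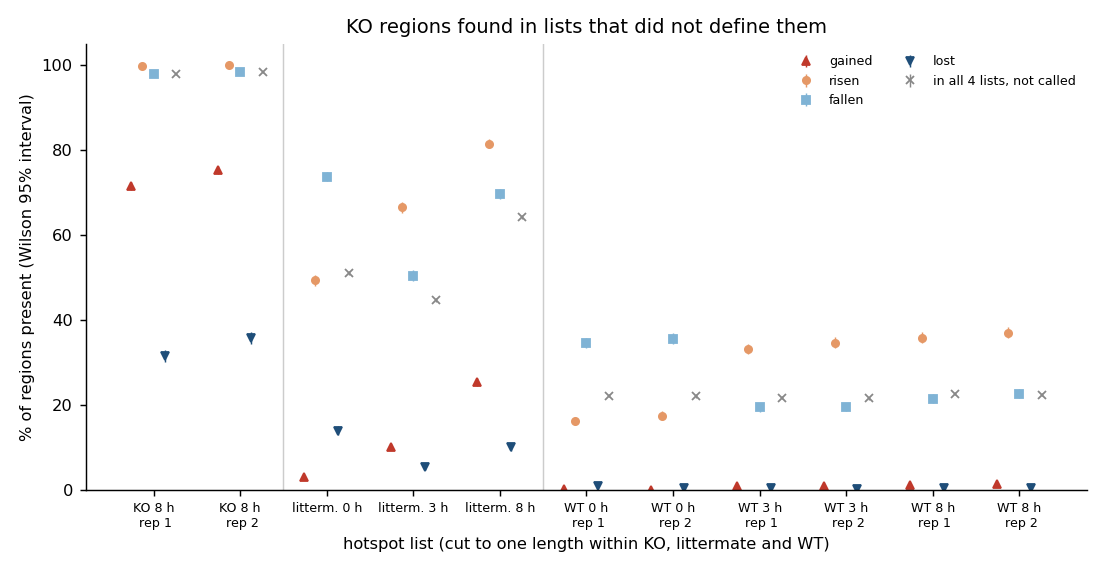
Percent of gained, risen, fallen, lost and uncalled shared KO regions (vertical, with Wilson 95% intervals, most smaller than the symbols) present in each list that did not define them, with lists cut to one length within KO, littermate and WT. Gained regions reach 71.5% and 75.3% in the KO 8 h lists and 10.1% in the littermate 3 h list, and risen and fallen regions change order between 0 h and 3 h in both control genotypes.

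Where the controls held a region at both times, its rank could be compared as well. In the littermate lists 2380 risen regions had a median difference of 0.46, and 78.1% were denser at 3 h. The same regions had a median of 0.78 in KO. For 2766 fallen regions the littermate median was -0.30, with 70.1% less dense at 3 h, against -0.76 in KO. In WT, 616 risen regions had a median of 0.29, with 75.5% denser at 3 h, and 809 fallen regions a median of -0.18, with 71.7% less dense, against 0.60 and -0.56 in KO. All shared regions had medians of 0.00 in the littermate and -0.01 in WT lists. In the littermate 47.5% of them were denser and 46.9% less dense at 3 h, and in WT 48.9% and 51.1%. The regions were called on the KO values, and the ranks of each genotype took the mean log2 MaxD of its own shortened lists. The sizes in KO and in the controls are thus on different scales and are not a test of a difference.

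Whether the 3 h response differed between KO and WT was tested region by region, with the 8 lists shortened to 15042 hotspots. Among 7734 regions in all 8 lists, limma's interaction term gave 0 calls (0%) at an adjusted p under 0.05, and the smallest adjusted p was 0.46. The unadjusted p was under 0.05 for 484 regions (6.26%). With the genotype and replicate number as a block, which in WT also separates 80 U from 100 U of DNase, there were 2 calls and 1019 unadjusted p-values under 0.05. The median standard error of the difference was 0.32 log2 units. At equal length median Z-scores were 41.3 to 45.4 in KO and 14.1 to 17.7 in WT, so the 2 genotypes were not measured alike. Gained and lost regions could not enter this test, which needs a region in every list.

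Gained and risen regions lay near each other, and fallen regions near fallen ones. Within 20 kb, 42.3% of risen regions had a gained region and 40.4% another risen region, against 23.1% and 17.2% of uncalled shared regions. Gained regions had another gained one in 37.2%, and 2446 of 8161 had a risen one. Only 12.2% of risen regions had a fallen one that near, against 18.7% of uncalled regions. Fallen regions had another fallen region within 20 kb in 33.5% and a lost one in 16.8%, against 18.7% and 11.3% of uncalled regions, and a risen one in 11.1%. A gained region was as near to 19.4% of fallen regions. Uncalled regions had each kind more often: a gained one in 23.1% and a risen one in 17.2%. Lost regions had a fallen neighbour in 20.2% and another lost one in 13.4%, slightly above the 18.7% and 11.3% of uncalled regions. They had a gained one in 15.6% and a risen one in 10.7%, below the 23.1% and 17.2% of uncalled regions. The distance was chosen with results of these data known, and the shares are a description with no test.

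All 19 chromosomes had more gained than lost regions, with ratios from 1.68 on chromosome 5 to 2.33 on chromosome 16. Chromosome 16 had the highest share of rises among shared regions (11.5%) and the lowest share of falls (8.49%). Chromosome 17 was its reverse, with 7.01% rises and 12.3% falls. No test of the differences between chromosomes was made.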

How the data were processed

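DNase-seq hotspot lists of 15 libraries were used, 4 of them (KO at 0 h and 3 h of LPS, 2 each) for the main comparison, grouped by the sample titles. CASAVA and the build mm9 are named per the submitters' processing notes; the aligner, hotspot caller, threshold and scaling of densities were not given in the sources used here. The authors listed, per the file headers, for each hotspot its position, MaxD and AveD, a signal (tag density), and a Z-score, a score. Depth is unknown, and coordinates are as deposited, with no statement whether they count from 0 or 1.

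Lists were cut to one length by MaxD (ties by AveD, then position) and merged at 1 bp with Python 3.11.15, numpy 2.4.6 and pandas 2.3.3. Rank-matched log2 densities were tested with limma 3.58.1 in R 4.3.3 (lmFit, eBayes with trend, two-sided, Benjamini-Hochberg adjustment). The procedure was tested on simulated data. Shares have Wilson 95% intervals (scipy 1.17.1). Named regions are the 10 densest gained, the 10 densest lost and the 10 called regions with the largest rise and fall; regions on chromosome 18 were counted and not named. The regions, lists and tests were chosen with earlier results of these data known. Same-numbered KO libraries were not treated as pairs: the labels give no shared source. Replicate differences (2 minus 1) at 0 h and at 3 h had a correlation of -0.0094 over the 59894 shared regions. Annotation at hand is of another build, so gene lists, cell type markers, motifs and sequences were not used here.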

Additional observations from a re-analysis of the deposited data

How the results depend on the processing

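Gained and lost counts stayed within 1.5 times of those reported with lists as deposited, ranked by Z-score or by AveD, with a common Z-score minimum, with at least 50% of a region covered, with hotspots up to 150 bp apart merged, and with X and Y. Lists cut to 0.5 of the length gave 4671 gained regions, and fixed bins of 500 bp gave 26397 gained and 11822 lost bins, a bin being smaller than a region. Leaving out one list in turn gave 11051 to 31769 gained and 5978 to 32096 lost regions, the highest where one list stood alone for the time that had to hold the region. For risen and fallen regions, leaving out KO 0 h replicate 1, KO 0 h replicate 2, KO 3 h replicate 1 or KO 3 h replicate 2 gave 0 to 0 calls each, with 1 residual degree of freedom; every other alternative was within 1.5 times of the reported counts (4050 to 6663 risen, 4308 to 6465 fallen). The lists as deposited called all 5421 risen and 4629 of 5891 fallen regions in the same direction; ranked by Z-score the overlap was 4081 and 4022 regions, and at 0.5 of the length 3826 and 3708. With the replicate block, 5582 regions rose and 6112 fell. The KO and WT difference had 2 calls and 1019 unadjusted p-values under 0.05 with the replicate block (484 without), and 0 to 1 with one list left out (1 without WT 3 h replicate 1), and 0 in the other alternatives.

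The share of gained regions in both KO 8 h lists, in the littermate 3 h list and in the littermate 0 h list moved outside the reported intervals as follows. It was 63.4% in both KO 8 h lists and 3.34% in the littermate 0 h list with lists as deposited, and 12.6% in the littermate 3 h and 1.54% in the littermate 0 h list at 0.5 of the length. It was 62.7% (KO 8 h) and 2.48% (littermate 0 h) by Z-score and 63.1% (KO 8 h) with a common Z-score minimum. With at least 50% of a region covered the 3 shares were 66.9%, 6.24% and 1.35%, and in bins of 500 bp 66.3%, 8.89% and 2.13%. Leaving out one list gave 22.5% to 68.8%, 3.85% to 10.4% and 1.63% to 4.14%; the lowest values came without KO 3 h replicate 1 or replicate 2. No named region reversed. With 4 lists, 2 of 90 values for named gained, 4 of 90 for lost, 2 of 92 for risen and 0 of 93 for fallen regions lost their call; without one list all 40 values for risen and all 40 for fallen regions did, with differences of 2.49 to 3.64 and -3.01 to -2.05 at adjusted p of 0.23 to 0.25. The causes were not tested further.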

Other observations

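Windows of 100 kb, chosen after the data were seen and with chromosome 18 left out, show where changes at 3 h in KO were crowded. The window at chr16:35800000-35899999 held 16 gained and 2 risen regions and no lost or fallen one, with 3 regions in all 4 lists. Next were chr5:99600000-99699999, with 14 gained and 2 risen, and chr7:95400000-95499999, with 12 gained and 3 risen, again with none lost or fallen. At chr10:18700000-18799999 there were 7 gained and 7 risen with 8 regions in all 4 lists, and chr4:144800000-144899999 held as many, 7 and 7, beside 1 lost and 1 fallen region. Falls were less crowded: chr11:114700000-114799999 and chr15:86000000-86099999 each held 8 fallen and 2 lost regions beside 2 gained, and chr2:166200000-166299999 held 6 fallen and 2 lost with none gained or risen. Of 972 windows with at least 5 gained, lost, risen or fallen regions, 269 held only gained or risen, 54 only lost or fallen, and 649 both. These are values with no test.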
